A study of Mus musculus with 12 samples.

Results

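The genes described here carry the symbols of the proteins of the cytosolic ribosome. They were taken by symbol, as Rpl or Rps followed by a number with an optional a, x, y or l, plus Rpsa and Rplp0, Rplp1 and Rplp2. Rows with -ps symbols, which mark pseudogenes, and the Rps6k kinases were left out. Rps4l, which the symbol rule kept, is annotated by GENCODE as a transcribed processed pseudogene. Of 78 symbols that matched, 74 reached a group mean of 10 normalized counts, 44 of the large subunit and 30 of the small subunit, among 14324 genes tested and 53465 rows in all. Rpl10l, Rpl6l, Rpl24 and Rpl32l fell below that mean in every group. Of the exon bases of Rpl24, 47.0% lie under another annotated gene of the same strand and 80.1% of its 100-base stretches occur in other genes, so its low count is uncertain. The rule used no difference between groups.

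RNA came from 12 cultures of bone marrow-derived dendritic cells (BM-DCs) of wild type C57BL/6 mice at post-natal week 12, 3 per group. BM-DCs are antigen-presenting cells that differentiate from bone marrow progenitors in medium with GM-CSF within 9 days. Aβ+LPS cultures received oligomers of the Aβ1-42 peptide (0.5 µM, 4 days, from day 8 of culture) and lipopolysaccharide (LPS), from the outer membrane of bacteria and used to mature these cells (100 ng/ml, 18 h), Aβ cultures the oligomers alone, LPS cultures LPS alone, and Ctrl cultures neither. In the paper's scheme the oligomers were started before LPS. The groups share strain, genotype, age and GM-CSF culture, and no library with a scrambled peptide was analysed here. The labels do not say whether the cultures of a group came from separate mice, so p-values measure the spread between these cultures, which may be technical.

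The ribosome reads mRNA and joins amino acids. Its small subunit decodes the message, and its large subunit forms the peptide bond and holds the tunnel through which the new protein leaves. Ribosomal protein mRNAs are known as TOP mRNAs, because they begin with a C followed by a tract of pyrimidines. The RNA-binding protein LARP1 and the kinase complex mTORC1 control their translation and stability through this tract. In dendritic cells, maturation is known to change protein synthesis while MHC and cytokine genes are induced.

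The start of the mRNA carries the tract, so 9 start regions are shown. Each runs 5′ to 3′ from 40 bases before to 12 bases after the start annotated by RefSeq in GRCm38.p6. The capitals mark the unbroken run of C and T that covers that start. Where a gene has several annotated starts, the one with the longest run is shown. The first 6 genes fell with Aβ, and the last 3 did not pass the test in Aβ vs. Ctrl. Genes that fell without such a run are not shown.
Rps18 (chr17:33955653-33955705, minus strand): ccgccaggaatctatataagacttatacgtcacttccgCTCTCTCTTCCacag
Rplp2 (chr7:141447611-141447663, plus strand): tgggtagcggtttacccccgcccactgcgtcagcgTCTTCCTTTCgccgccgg
Rpl28 (chr7:4792925-4792977, plus strand): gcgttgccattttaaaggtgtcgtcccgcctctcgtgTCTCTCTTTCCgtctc
Rpl35a (chr16:33056442-33056494, plus strand): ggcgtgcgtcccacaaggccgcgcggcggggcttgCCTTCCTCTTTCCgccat
Rpl14 (chr9:120571477-120571529, plus strand): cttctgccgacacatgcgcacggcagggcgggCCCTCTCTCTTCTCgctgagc
Rpl35 (chr2:39005119-39005171, minus strand): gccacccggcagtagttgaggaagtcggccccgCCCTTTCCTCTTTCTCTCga
Rps27 (chr3:90213636-90213688, minus strand): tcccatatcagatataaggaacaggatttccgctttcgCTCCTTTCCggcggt
Rps27l (chr9:66946046-66946098, plus strand): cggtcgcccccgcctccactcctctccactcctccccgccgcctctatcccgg
Rpl41 (chr10:128549156-128549208, minus strand): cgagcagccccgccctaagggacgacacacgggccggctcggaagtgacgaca

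Of the 74 genes, 54 had a start region in the RefSeq table. A run of at least 8 pyrimidines covered the start in 15 of them (27.8%), against 4.59% of 27025 genes. For this and the sequences below, a gene with several annotated starts was counted if any of them had the feature. The count depends on the annotated start, since a start a few bases away moves the run out of place. The run is 11 bases long in Rps18 and 18 in Rpl35, both of which fell with Aβ. It is 9 bases long in Rps27, which did not pass the test, and Rps27l and Rpl41 have no C or T at the annotated start. Aβ vs. Ctrl had a median log2 difference of -0.77 over the 15 genes with such a run (range -0.97 to -0.07) and -0.74 over the other 39. Past the threshold, 14 of the 15 and 34 of the 39 fell, against 33.7% of all genes tested. The sequence CCGGAAG, read on both strands and known as a site for Ets factors such as GABP, stood within 250 bases before to 50 bases after the start of 22 of the 54 genes (40.7%), against 9.93% of all genes. TATAAA stood there in 6 (11.1%), against 15.7%.

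Libraries held 23415609 to 29690965 reads in genes. Reads were counted without a stated rule for those that match several genes, and ribosomal protein genes have many processed copies. Of the 74 genes, 66 shared at least 1 stretch of 100 bases, the read length, with an annotated transcript of another gene (median 22.2% of stretches), and 13 shared over 50%. Counts of those genes are uncertain to that extent. LPS replicate 2 gave the highest of the 3 LPS values for 66 of the 74 genes, and Aβ+LPS replicate 3 the highest Aβ+LPS value for 65, so counts without each of these libraries stand beside the results. Levels between genes are not compared, because normalized counts grow with transcript length. In bulk RNA, fewer cells of a type and less RNA per cell cannot be told apart.

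Ribosomal protein mRNA took a smaller share of the reads in all treated groups than in Ctrl. The 74 genes held 1.43%, 1.43% and 1.51% of reads in Aβ+LPS libraries, 1.45%, 1.47% and 1.40% in Aβ libraries, 1.86%, 2.04% and 1.78% in LPS libraries, and 2.15%, 2.29% and 2.27% in Ctrl libraries. Means were 1.46 ± 0.0435%, 1.44 ± 0.0337%, 1.89 ± 0.131% and 2.24 ± 0.0747% in the same order (SD, n = 3 each). No library of one group reached into the range of another, except that Aβ+LPS and Aβ libraries overlapped. In Aβ the mean share changed by -35.7% against Ctrl. In LPS the change against Ctrl was -15.5%, and in Aβ+LPS the change against LPS was -23.0%.

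**Figure D1:**
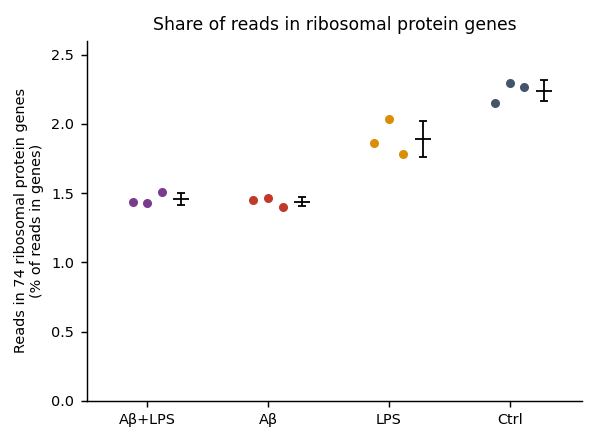
Share of reads in genes, in percent, that fell in the 74 ribosomal protein genes, by group. Points are the 3 libraries, and the black bar is the mean with its SD. The Aβ+LPS and Aβ libraries lie together between 1.40% and 1.51%, LPS libraries between 1.78% and 2.04%, and Ctrl libraries from 2.15% up.

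Aβ vs. Ctrl asked what the oligomers do to immature cells. Of the 74 genes, 67 fell and 0 rose at an adjusted p under 0.05 in limma, run on log2(normalized count + 1) with Benjamini-Hochberg adjustment over all genes. Among all genes tested, 33.7% fell and 35.1% rose. The median log2 difference of the 74 genes was -0.74, a change of -40.1%, while the median of all genes was 0.02. At p under 0.05 without adjustment 68 were lower and 0 higher. In 67 genes every Aβ library lay below every Ctrl library, against 35.6% of all genes, and in 1 gene, the sparsely counted Rpl39l, above it, against 36.8%. Both subunits fell, 27 of 30 small subunit genes with a median of -0.78 and 40 of 44 large subunit genes with a median of -0.71. An absolute log2 difference over 1 was found in 4 of the 74 genes, which are described next (Rpl10a, Rpl3, Rpl12 and Rps7).

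Rpl10a, at chr17:28328471-28331033 of GRCm38, had the largest fall of the 74. It encodes the protein of the L1 stalk, which helps used tRNA leave the ribosome. Its normalized counts were 1075, 1095 and 1073 in Aβ cultures, against 3452, 3805 and 3776 in Ctrl cultures. The log2 difference was -1.76 (SE 0.09, adjusted p 4.97e-14 in limma). All Aβ values lay below all Ctrl values, and 51.7% of its 100-base stretches occur in transcripts of 2 other genes.

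Rpl3 (chr15:80077791-80091868) encodes a protein near the centre that forms the peptide bond. It had 5593, 5631 and 5601 normalized counts in Aβ cultures, against 12834, 13643 and 13149 in Ctrl cultures, a log2 difference of -1.24 (SE 0.05, adjusted p 2.68e-15 in limma). Rpl12 (chr2:32961559-32965345), whose protein sits at the base of the stalk that binds elongation factors, had 6141, 5887 and 5856 against 13865, 13965 and 14243, a log2 difference of -1.23 (SE 0.05, adjusted p 8.52e-16 in limma). Neither gene showed overlap between the groups.

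The stalk itself is built from Rplp0, Rplp1 and Rplp2, which recruit the GTPases that drive elongation. All 3 fell in Aβ vs. Ctrl, Rplp1 by 0.97 on the log2 scale, Rplp2 by 0.77 and Rplp0 by 0.57. Rplp1 (chr9:61913284-61914542) averaged 11496 ± 539 normalized counts in Aβ cultures and 22490.1 ± 1673 in Ctrl cultures (SD, n = 3 each).

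In the small subunit Rps7 led, at chr12:28630854-28635953. Its protein takes part in the maturation of the small subunit rRNA, and it had 3921, 3904 and 4195 normalized counts in Aβ cultures against 8155, 8541 and 8437 in Ctrl cultures, with a log2 difference of -1.06 (SE 0.05, adjusted p 2.92e-14 in limma). Rps18 (chr17:33951999-33956001), part of the head of the small subunit and often used as a reference gene, had 7211, 7782 and 6794 against 13216, 15318 and 14196. Its log2 difference was -0.97 (SE 0.06, adjusted p 1.08e-12 in limma). Rps19, mutated in the human anaemia of Diamond and Blackfan, fell by 0.95, Rps12, of the beak of the small subunit, by 0.95, and Rpsa, also known as the laminin receptor, by 0.93.

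Rpl5 and Rpl11, which bind 5S rRNA and can block the p53 ligase Mdm2, had log2 differences of -0.69 (SE 0.04) and -0.86 (SE 0.04). Rpl26, which binds p53 mRNA in human cells, had -0.58 (SE 0.07), and Rps3, at the mRNA entry channel, had -0.58 (SE 0.05). Adjusted p values of the 4 genes in limma lay between 6.64e-14 and 4.99e-07.

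**Figure D2:**
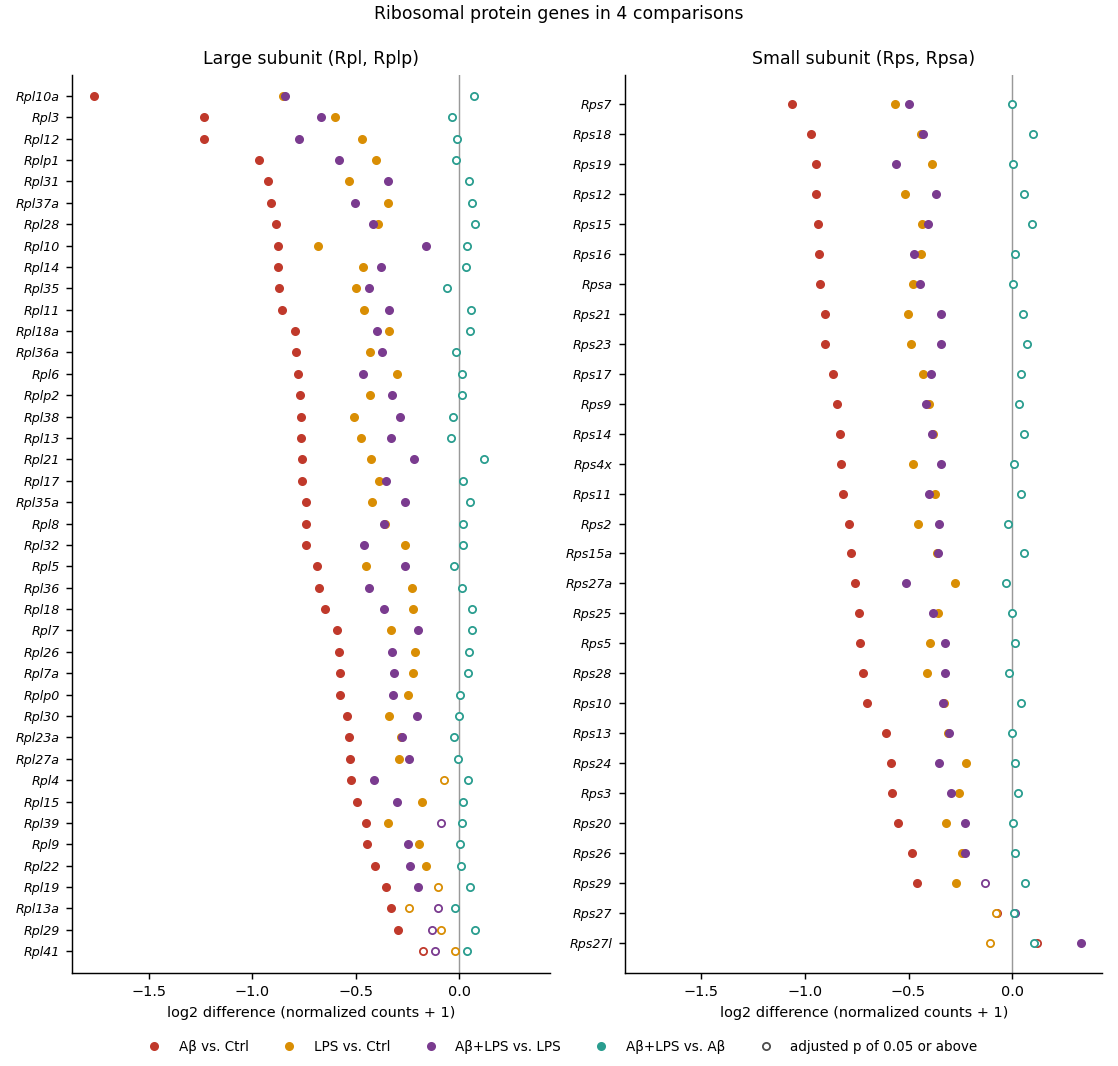
Log2 difference of log2(normalized count + 1) for the 70 genes whose highest group mean reached 100, 1 row per gene, with the large subunit on the left and the small subunit on the right. Colours mark 4 comparisons, and open points have an adjusted p of 0.05 or above in limma. For most genes the red points (Aβ vs. Ctrl) lie farthest left, down to -1.76 in Rpl10a, and the teal points (Aβ+LPS vs. Aβ) lie near 0.

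LPS vs. Ctrl asked what maturation does. Of the 74 genes, 63 fell and 0 rose in limma, against 22.5% of all genes that fell and 23.8% that rose. The median log2 difference was -0.36, a change of -22.1%, and that of all genes was 0.00. At p under 0.05 without adjustment 64 were lower and 0 higher. In 59 genes every LPS library lay below every Ctrl library and in 1 gene (Rpl39l) above it, against 26.3% of all genes each way. The count of genes that fell was 67 without LPS replicate 2 and 63 without Aβ+LPS replicate 3. Scaling by library totals alone moved the median of all genes by 0.11 in this comparison, so the size of the fall depends on the scaling. All 63 had also fallen in Aβ vs. Ctrl, which uses the same Ctrl libraries.

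Rpl10a fell farthest with LPS too, to 2016, 2438 and 1715 normalized counts in LPS cultures, against 3452, 3805 and 3776 in Ctrl cultures, a log2 difference of -0.85 (SE 0.09, adjusted p 3.88e-08 in limma). Next came Rpl10 (chrX:74270812-74273135), whose protein joins the large subunit last, in the cytoplasm. Rpl10 had 10518, 10593 and 10269.9 in LPS cultures, against 15853, 17044 and 17469 in Ctrl cultures, a log2 difference of -0.68 (SE 0.04, adjusted p 1.66e-11 in limma). Rpl3, Rps7 and Rpl31, the last a protein at the rim of the exit tunnel, followed with -0.60 (SE 0.05), -0.57 (SE 0.05) and -0.53 (SE 0.06). For all 5 genes the LPS libraries lay below the Ctrl libraries.

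Rpl4 was among the 11 genes that did not pass with LPS. Its protein lines the exit tunnel, and its normalized counts were 17492, 19789 and 16546 in LPS cultures, against 18304, 19147 and 19022 in Ctrl cultures. The groups overlapped, with a log2 difference of -0.07 (SE 0.05, adjusted p 0.282 in limma). In Aβ cultures it had 13421, 13093 and 12802, a log2 difference from Ctrl of -0.52 (SE 0.05, adjusted p 1.76e-08 in limma).

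Aβ+LPS vs. LPS asked what the oligomers add to maturation. Of the 74 genes, 63 fell and 1 rose in limma, against 28.3% and 27.8% of all genes. The median log2 difference was -0.34, a change of -21.1%, and that of all genes was 0.01. In 61 genes every Aβ+LPS library lay below every LPS library, against 29.9% of all genes, and in 1 gene (Rps27l) above it, against 31.0%. The fallen genes numbered 61 without LPS replicate 2 and 66 without Aβ+LPS replicate 3. Of the 63 genes, 61 also fell in both comparisons with Ctrl.

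Rpl10a had 1053, 1108 and 1249.9 normalized counts in Aβ+LPS cultures, against 2016, 2438 and 1715 in LPS cultures, a log2 difference of -0.84 (SE 0.09, adjusted p 2.77e-08 in limma). For Rpl12 the values were 5796, 5765 and 6159.9 against 10060.3, 10932 and 9402, a log2 difference of -0.78 (SE 0.05, adjusted p 6.93e-12 in limma). Rpl3, Rplp1 and Rps19 fell by 0.67, 0.58 and 0.56 on the log2 scale. No library of the Aβ+LPS group reached the LPS range in these 5 genes. Rpl4 fell here, with 13314, 12852 and 14279.9 in Aβ+LPS cultures and a log2 difference of -0.41 (SE 0.05, adjusted p 1.19e-06 in limma). Rpl10 fell as well, with 9032, 9349.6 and 9718 in Aβ+LPS cultures against 10518, 10593 and 10269.9 in LPS cultures and a log2 difference of -0.16 (SE 0.04, adjusted p 0.00288 in limma).

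Aβ+LPS vs. Aβ asked what LPS adds to the oligomers. None of the 74 genes passed limma in either direction, against 0.0279% of all genes that rose and 0.112% that fell. At p under 0.05 without adjustment 1 gene was higher and 0 lower. This was Rpl21, of the large subunit, with 6346, 6558 and 6972 normalized counts in Aβ+LPS cultures against 6011, 6321 and 5948 in Aβ cultures, without overlap, and a log2 difference of 0.12 (SE 0.05, adjusted p 0.579 in limma). The fits of edgeR and DESeq2 on whole reads called 0 of the 74. The median log2 difference was 0.02 (0.00 over all genes). Among 69 genes that averaged 1000 normalized counts or more, 55 were positive, the largest absolute log2 difference was 0.12, and SEs ran between 0.04 and 0.09. Without Aβ+LPS replicate 3 only 21 of the 69 were positive, with a median of -0.01, so the sign of many of these differences rested on that library. The Aβ+LPS libraries did not overlap the Aβ libraries in 5 genes that were higher (Rpl21, Rpl28, Rpl3l, Rpl7 and Rps27l) and 2 that were lower (Rpl36al and Rpl39l), against 6.99% and 6.65% of all genes.

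**Figure D3:**
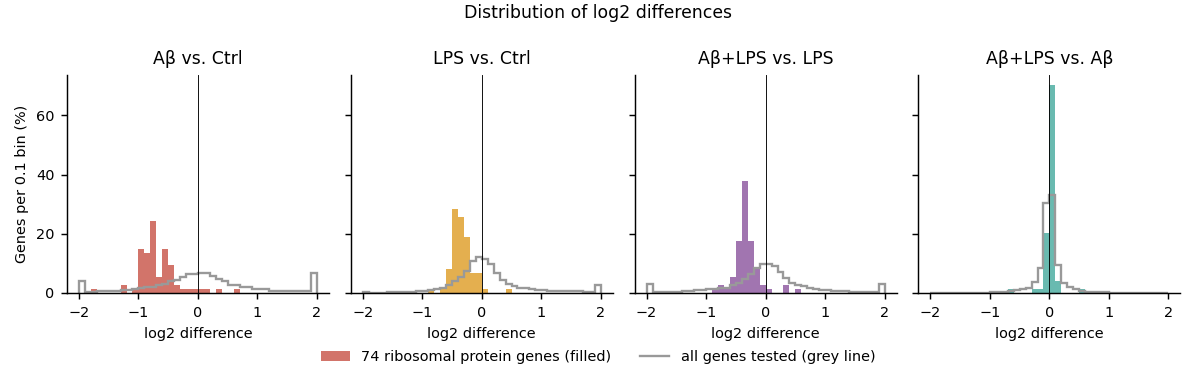
Share of genes, in percent per bin of 0.1, by log2 difference in 4 comparisons. Filled bars are the 74 ribosomal protein genes and the grey line is all 14324 genes tested, with values beyond 2 placed in the end bins. Most bars lie left of the grey peak in Aβ vs. Ctrl, LPS vs. Ctrl and Aβ+LPS vs. LPS, with medians of -0.74, -0.36 and -0.34, and on it in Aβ+LPS vs. Aβ.

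The interaction takes the Aβ difference in the presence of LPS minus the Aβ difference in its absence, so a positive value means a smaller fall with Aβ once LPS was present. It was positive past the threshold in 59 of the 74 genes in limma and negative in 0, against 15.2% and 16.6% of all genes. The median was 0.39 on the log2 scale (-0.01 over all genes). The count was 67 without LPS replicate 2 and 54 without Aβ+LPS replicate 3. With counts scaled by library totals alone it was 43, and that scaling moved the median of all genes by 0.11 in LPS vs. Ctrl and by -0.12 in the interaction. Among genes past the threshold the largest was in Rpl10a, 0.92 (SE 0.12, adjusted p 3.74e-06 in limma), and the next in Rpl10, 0.72 (SE 0.06, adjusted p 5.13e-09 in limma). Rps12, Rpl31 and Rps7 followed with 0.58, 0.58 and 0.57. In Rpl4 the interaction was 0.11 (SE 0.08) with an adjusted p of 0.284 in limma.

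Several genes passed with small changes. Rpl9, of the large subunit, had log2 differences of -0.45 (SE 0.05) in Aβ vs. Ctrl and -0.19 (SE 0.05) in LPS vs. Ctrl, with 10489, 11709 and 9704 normalized counts in LPS cultures against 11997, 11896 and 12507 in Ctrl cultures, which did not overlap. Rpl15, also of the large subunit, had -0.18 in LPS vs. Ctrl. Rps24, a small subunit gene mutated in some human anaemias of the Diamond and Blackfan type, had -0.22 there. The LPS vs. Ctrl calls of Rpl15, Rpl9 and Rps24 passed in 22, 23 and 23 of 24 alternatives. Rpl30 had -0.20 in Aβ+LPS vs. LPS. The smallest interactions past the threshold were 0.20 in Rpl9, 0.24 in Rps24, Rpl36 and Rps27a, the last made as a fusion with ubiquitin, and 0.25 in Rplp0.

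By group means, 69 of the 74 genes were ordered from Ctrl through LPS to Aβ, high to low, as were 30.7% of all genes tested. All 69 therefore had a larger fall of the group mean with Aβ than with LPS. By log2 difference the sparsely counted Rpl3l did not, with -0.41 in Aβ vs. Ctrl and -0.43 in LPS vs. Ctrl.

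The 4 genes on chromosome X, Rpl10, Rps4x, Rpl36a and Rpl39, all fell in Aβ vs. Ctrl, with log2 differences between -0.88 and -0.45, and in LPS vs. Ctrl, between -0.68 and -0.35. Rps4x had 6569.9, 6484 and 6571 normalized counts in Aβ cultures, against 11409, 11478 and 11944 in Ctrl cultures, with no overlap. Rpl39, a small protein of the exit tunnel, did not pass in Aβ+LPS vs. LPS (-0.09, SE 0.06, adjusted p 0.216 in limma), with 3139.8, 3562 and 3604 in Aβ+LPS cultures against 3379, 4002 and 3592 in LPS cultures, which overlapped.

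In Aβ vs. Ctrl 7 of the 74 genes did not pass. Of these, 4 were counted at under 100 in every group (Rps4l, Rpl3l, Rpl39l and Rpl36al), and the others were Rps27, Rps27l and Rpl41. Rps27 (chr3:90212522-90213651), a zinc finger protein of the small subunit, had 4196, 4219 and 4658 in Aβ+LPS cultures, 4486, 4585 and 3927 in Aβ, 4055, 4570.0 and 4321 in LPS, and 4253, 4703 and 4683 in Ctrl. All groups overlapped, and its log2 differences were -0.07 (SE 0.06) in Aβ vs. Ctrl, 0.01 in Aβ+LPS vs. LPS and -0.08 in LPS vs. Ctrl. It kept an adjusted p above the threshold for Aβ vs. Ctrl in all 24 alternatives, between 0.119 and 0.981.

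Rps27l (chr9:66946086-66949516), the paralog of Rps27 and a p53 target, was the 1 gene that rose in Aβ+LPS vs. LPS. It had 2997, 3148 and 3312 in Aβ+LPS cultures, against 2398, 2786 and 2348 in LPS cultures, without overlap, a log2 difference of 0.33 (SE 0.06, adjusted p 8.58e-05 in limma). Aβ cultures had 2919.8, 2889.9 and 2980.4, against 2669, 2514 and 2904 in Ctrl cultures, which overlapped, a log2 difference of 0.12 (SE 0.06, adjusted p 0.0794 in limma) that passed in 4 of 24 alternatives, between 0.00353 and 0.324. No 100-base stretch of Rps27l occurs in another annotated gene.

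Rpl41 (chr10:128548114-128549305), one of the shortest proteins known, at the interface of the subunits, had 8711, 9783 and 8359 in Aβ cultures, against 9398, 10649 and 10297 in Ctrl cultures, which overlapped. The log2 difference was -0.18 (SE 0.08, adjusted p 0.0505 in limma), and the adjusted p passed in 9 of 24 alternatives, between 0.012 and 0.338. In Aβ+LPS vs. LPS, Rps29, of the small subunit, did not pass either (-0.13, SE 0.07, adjusted p 0.126 in limma), while it fell in Aβ vs. Ctrl (-0.46). Further genes that missed the threshold in LPS vs. Ctrl but fell in Aβ vs. Ctrl were Rpl19, Rpl29 and Rpl13a, with log2 differences of -0.36, -0.30 and -0.33 in Aβ vs. Ctrl.

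**Figure D4:**
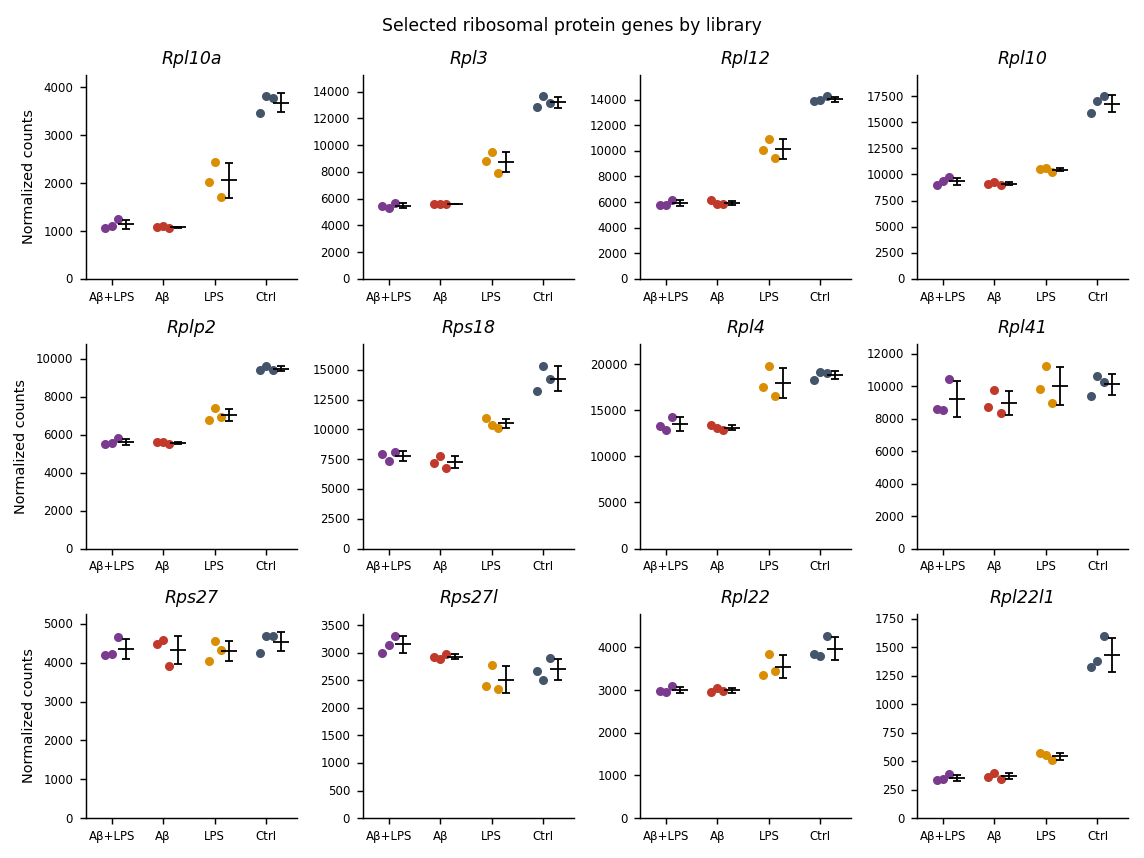
Normalized counts of 12 genes in each library, by group, on linear axes from 0. Points are the 3 libraries, and the black bar is the mean with its SD. Rpl10a, Rpl3 and Rpl12 step down through LPS to the Aβ and Aβ+LPS groups, Rpl4 is lower in the Aβ and Aβ+LPS groups, Rpl41 and Rps27 overlap in all groups, and Rps27l is highest in Aβ+LPS.

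Several of these genes serve as references in quantitative PCR. Rplp2 (chr7:141447370-141451585) was one of the study's reference genes, beside Gapdh. The paper normalized its samples to the average of the amplification data of both genes, not to Rplp2 alone. It had 5506, 5553 and 5811 normalized counts in Aβ+LPS cultures, 5629, 5594 and 5494 in Aβ, 6758, 7417 and 6944 in LPS, and 9412, 9628 and 9439 in Ctrl. The treated groups lay below Ctrl without overlap, with log2 differences of -0.77 (SE 0.04, adjusted p 2.60e-13 in limma) in Aβ vs. Ctrl and -0.43 (SE 0.04, adjusted p 1.56e-08 in limma) in LPS vs. Ctrl. In Aβ+LPS vs. LPS the difference was -0.32 (SE 0.04, adjusted p 7.44e-07 in limma).

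Gapdh, an enzyme of glycolysis, moved the other way, with 21485, 19704 and 21120.3 in Aβ+LPS cultures, 20434, 20106 and 19230.1 in Aβ, 16123, 16243 and 15136 in LPS, and 13659.5, 15007 and 14028 in Ctrl. The ratio of Rplp2 to Gapdh was 0.271 ± 0.0133 in Aβ+LPS, 0.280 ± 0.00528 in Aβ, 0.445 ± 0.0223 in LPS and 0.668 ± 0.0241 in Ctrl (SD, n = 3 each). Their geometric mean varied less, with 10805 ± 315 in Aβ+LPS, 10536 ± 231 in Aβ, 10556 ± 376 in LPS and 11622 ± 355 in Ctrl.

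Rplp0 fell by 0.57 in Aβ vs. Ctrl and by 0.25 in LPS vs. Ctrl. Rpl13a, known from human monocytes as part of a complex that silences inflammatory mRNAs, was counted at only 160.4, 172 and 166 in Aβ+LPS cultures, 167, 171 and 169 in Aβ, 199.8, 164 and 175 in LPS, and 219, 199 and 219 in Ctrl. Other annotated genes of the same strand, Gm45713, Mir5121 and Snord33, cover together 35.4% of its exon bases, and the counting of reads that fall in several genes is not stated. It fell in Aβ vs. Ctrl (-0.33, SE 0.11, adjusted p 0.00966 in limma), a call lost in 1 of 24 alternatives, at 0.0558.

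Rpl22, which mouse T cells need for their development, fell in Aβ vs. Ctrl, with 2950.3, 3044 and 2978 in Aβ cultures against 3847, 3790.3 and 4279.7 in Ctrl cultures and a log2 difference of -0.41 (SE 0.05, adjusted p 6.47e-07 in limma). Its paralog Rpl22l1 (chr3:28805436-28807424), outside the rule, had 338, 342 and 386 in Aβ+LPS cultures, 362, 393 and 342 in Aβ, 568, 553 and 507 in LPS, and 1325, 1377 and 1604 in Ctrl. Every treated library lay below every Ctrl library. Its log2 differences were -1.97 (SE 0.08, adjusted p 3.20e-15 in limma) in Aβ vs. Ctrl and -1.40 (SE 0.08, adjusted p 6.33e-12 in limma) in LPS vs. Ctrl. Rpl22 fell too in LPS vs. Ctrl (-0.16, SE 0.05, adjusted p 0.0158 in limma). Its LPS and Ctrl libraries overlapped, however, and the call passed in 19 of 24 alternatives.

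Rpl7 fell in LPS vs. Ctrl (-0.33, SE 0.04), while Rpl7l1, outside the rule, rose there, with 2578, 2665 and 2820.5 in LPS cultures against 2192, 2205 and 2336 in Ctrl cultures (0.26, SE 0.05, adjusted p 1.23e-04 in limma). In Aβ+LPS vs. LPS both fell, Rpl7 by 0.20 and Rpl7l1 by 0.29, and in Aβ vs. Ctrl Rpl7 fell by 0.59 while Rpl7l1 had -0.05 (SE 0.05, adjusted p 0.384 in limma). Rpl3l and Rpl39l, known from striated muscle and testis, and Rpl36al had group means of 8.09 to 14.4 normalized counts and passed in no comparison. Rps4l, with group means of 57.3 to 62.0, passed in none as well.

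A further 7 rows hold ribosomal proteins that the symbol rule missed, Rps3a1 and 6 rows without a symbol, among them the rows that GENCODE names Rpl34 and Rps6. All 7 fell in each of Aβ vs. Ctrl, LPS vs. Ctrl and Aβ+LPS vs. LPS, with medians of -0.66, -0.32 and -0.32. Rps6, the target of S6 kinase below mTORC1, had 3220.1, 3130.4 and 3153 normalized counts in Aβ cultures, against 5664, 5679 and 5819 in Ctrl cultures, without overlap. Of 294 pseudogene rows 26 were tested. In Aβ vs. Ctrl 18 of them fell and 0 rose (median -0.84), against 33.7% and 35.1% of all genes. Their counts are uncertain, because the counting of reads that match several genes is not stated. Among the 58 genes left without those that share over 50% of stretches or overlap a same-strand gene by over 20%, 52 fell in Aβ vs. Ctrl, 49 in Aβ+LPS vs. LPS and 50 in LPS vs. Ctrl, with medians of -0.74, -0.34 and -0.36.

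A list of 6 further ribosomal or paralogous proteins had 5 tested, of which 3 fell and 0 rose in Aβ vs. Ctrl (median -0.66). Rack1, a scaffold on the small subunit, fell by 0.91 on the log2 scale in Aβ vs. Ctrl, by 0.42 in LPS vs. Ctrl and by 0.46 in Aβ+LPS vs. LPS. Fau, made as a fusion of a ubiquitin-like protein with a small subunit protein, fell by 0.66 in Aβ vs. Ctrl.

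The other genes of protein synthesis were taken in lists, whose counts stand against the shares of all genes given for each comparison. In the list of translation factors and further TOP mRNAs, 19 of 21 fell and 0 rose in Aβ vs. Ctrl (median -0.52), 15 fell and 1 rose in LPS vs. Ctrl (-0.27), and 18 fell and 1 rose in Aβ+LPS vs. LPS (-0.27). Eef1a1, which brings tRNA to the ribosome, had 36956, 38079.9 and 37295 normalized counts in Aβ cultures and 56791, 59211 and 53513 in LPS cultures, against 109827, 115294 and 115669 in Ctrl cultures. Its log2 differences from Ctrl were -1.60 (SE 0.05, adjusted p 1.52e-17 in limma) with Aβ and -1.01 (SE 0.05, adjusted p 2.84e-13 in limma) with LPS, and its interaction was 1.06. Eef1b2 and Eef1g, which recharge Eef1a1, fell by 0.93 and 0.89 in Aβ vs. Ctrl. Snhg1, a noncoding host of small nucleolar RNAs, rose in LPS vs. Ctrl (0.74, SE 0.08).

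Initiation and release factors outside that list split in Aβ vs. Ctrl, with 7 of 29 higher and 15 lower (median -0.13). Eif4a1, the helicase of initiation, fell by 0.83, and Eif6, which keeps the subunits apart, rose by 0.80. Of the genes for ribosome assembly, 34 of 61 fell and 7 rose in Aβ vs. Ctrl (-0.20), 34 fell and 4 rose in Aβ+LPS vs. LPS (-0.21), and 8 fell and 8 rose in LPS vs. Ctrl (0.01). Nop56, of the small nucleolar ribonucleoproteins, fell by 0.68 in Aβ vs. Ctrl, and Sbds, needed to release Eif6, rose by 0.46. RNA polymerase I and its factors had 5 of 15 higher and 5 lower in Aβ vs. Ctrl (0.07), and RNA polymerase III and its factors 4 of 18 higher and 9 lower (-0.17).

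Mitochondrial ribosomal proteins, built into a separate ribosome, had 15 of 77 higher and 22 lower in Aβ vs. Ctrl (-0.05), 16 higher and 9 lower in LPS vs. Ctrl (-0.02). Mitochondrially encoded mRNA had 3 of 10 higher and 2 lower in Aβ vs. Ctrl (-0.03). In Aβ+LPS vs. LPS the same list had 6 higher, 0 lower and a median of 0.29, and with LPS alone against Ctrl it had 1 higher, 3 lower and a median of -0.14. All mitochondrial genes together held 1.86 ± 0.0424% of reads in Aβ+LPS and 1.70 ± 0.128% in Aβ (SD, n = 3 each). They held 1.53 ± 0.135% in LPS and 1.46 ± 0.123% in Ctrl. Without mitochondrial reads in the total, ribosomal protein genes held 1.49% in Aβ+LPS, 1.46% in Aβ, 1.92% in LPS and 2.27% in Ctrl. With those reads the means were 1.46%, 1.44%, 1.89% and 2.24% in the same order. The lower shares in the treated groups thus remained without mitochondrial reads. Any other part of mitochondrial genes in the fall was not tested. Aminoacyl-tRNA synthetases had 8 of 19 higher and 5 lower (0.00), and nonsense-mediated decay genes 7 of 13 higher and 2 lower (0.17), both in Aβ vs. Ctrl. Housekeeping genes outside the ribosome had 3 of 12 higher and 7 lower (-0.38).

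Of the regulators of mTORC1 and of TOP mRNAs, 6 of 23 were higher and 8 lower in Aβ vs. Ctrl (0.01), where 35.1% of all genes rose and 33.7% fell. Ddit4, an inhibitor of mTORC1, rose by 2.81 (SE 0.08) in Aβ vs. Ctrl, by 0.81 (SE 0.08) in LPS vs. Ctrl and by 2.07 (SE 0.08) in Aβ+LPS vs. LPS. Sesn1, another inhibitor, had -2.50, -1.18 and -1.27 in the same 3 comparisons and passed in each. Eif4ebp1, which holds back cap-dependent initiation, had 0.41 (SE 0.07) in Aβ vs. Ctrl, and its relative Eif4ebp2 had -0.94 (SE 0.04). Larp1 averaged 3474 ± 35.6 normalized counts in Aβ cultures, 3344 ± 144 in LPS cultures and 3399 ± 82.3 in Ctrl cultures (SD, n = 3 each), and Mtor 1016 ± 53.9, 985 ± 14.5 and 992 ± 38.5. Neither passed in any comparison.

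The Myc network, which promotes ribosome synthesis, had 4 of 9 genes higher and 4 lower in Aβ vs. Ctrl (-0.11). Myc had 291, 344 and 259 normalized counts in Aβ cultures, against 352, 377 and 380.4 in Ctrl cultures, without overlap, a log2 difference of -0.32 (SE 0.11, adjusted p 0.0117 in limma). Its difference was -0.48 (SE 0.11, adjusted p 6.30e-04 in limma) in Aβ+LPS vs. LPS and -0.10 (SE 0.11, adjusted p 0.462 in limma) in LPS vs. Ctrl.

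Cell cycle genes moved with Aβ, and their part in the fall of ribosomal protein mRNA was not tested. All 20 fell in Aβ vs. Ctrl (median -2.81) and in Aβ+LPS vs. LPS (-2.63), and 15 of 20 in LPS vs. Ctrl (-0.35). Their summed level was 291 to 296 CPM (reads scaled to equal library totals) in Aβ+LPS, 316 to 324 in Aβ, 1254 to 1287 in LPS and 1446 to 1493 in Ctrl. Mki67, a marker of dividing cells, had a log2 difference of -2.39 (SE 0.06) in Aβ vs. Ctrl and -0.07 (SE 0.06, adjusted p 0.403 in limma) in LPS vs. Ctrl.

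Markers of cell types were summed in the same unit. The 6 dendritic cell markers, none of which was at 0 in a group, gave 3568 to 3829 CPM in Aβ+LPS, 3512 to 3676 in Aβ, 3179 to 3631 in LPS and 3319 to 3395 in Ctrl. The 6 macrophage markers gave 2193 to 2275, 2227 to 2336, 2543 to 2567 and 2621 to 2686 in the same order. In Aβ vs. Ctrl 5 of the 6 macrophage markers fell and 1 rose, with a median log2 difference of -1.49. Of the 6 dendritic cell markers 4 rose and 1 fell there, with a median of 1.05. In Aβ+LPS vs. LPS the medians were -1.19 for macrophage and 0.90 for dendritic cell markers. Fibroblast markers, 5 in number, gave 43.7 to 52.04, 36.9 to 44.5, 1.37 to 1.80 and 0.0368 to 0.184, with Col1a2, Col3a1 and Lum at 0 in Ctrl. Neutrophil markers gave 42.7 to 54.4, 47.7 to 63.8, 32.6 to 37.1 and 24.3 to 36.3. Of the 4 tested, 3 fell and 1 rose in Aβ+LPS vs. LPS (median -1.71), although the sum over all 6 was higher there. In Aβ vs. Ctrl 1 of them rose and 1 fell. B cell, T and NK cell, mast cell and basophil, and erythroid markers summed to at most 4.17 CPM in any library. The part of these cell types in the fall was not tested.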

How the data were processed

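The authors sequenced poly(A) RNA with a stranded kit in single reads of 100 bases. The submitters' processing notes name FastQC 0.11.5, HISAT2 2.1.0, featureCounts 1.6.0, DESeq2, R 3.4.4 and GRCm38. The counting of reads with several matches is not given in the sources used here. The deposited signal per library is a gene count that the authors divided by a size factor, from which whole reads were recovered (100% of values, tolerance 0.05 of a read). Deposited columns with the authors' own fold changes and p-values were not used.

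The 14324 genes that reached a group mean of 10 were tested with limma 3.58.1 (trend, two-sided, threshold 0.05, Benjamini-Hochberg) on all 12 libraries, with group as the only term. The members, gene lists and tests were chosen with earlier results of these data known. Named genes are the 5 highest and 5 lowest of each comparison past the threshold, reference genes, X-linked genes, paralogs, genes with roles outside the ribosome, genes whose call differs from the majority, and up to 3 genes per list, direction and comparison by adjusted p. Larp1, Mtor, Mki67, Rps6, Rps29, Rpl21, Rpsa and the genes with printed start regions were named after their values were seen. Alternatives were other scalings, edgeR 4.0.16 and DESeq2 1.42.0 on recovered counts, other pseudocounts and filters, only the groups compared, a replicate block and each library left out. Coordinates came from GENCODE M21 on GRCm38, start regions from RefSeq. The limma and edgeR fits were also run on simulated data in R 4.3.3, in which Aβ and Aβ+LPS had equal changes. The outcome is not reported here. Tables and figures were made in Python 3.11.15 with pandas 2.3.3 and Matplotlib 3.10.9.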

Additional observations from a re-analysis of the deposited data

Results flagged for a closer look

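The effect of Aβ differed with and without LPS in 59 ribosomal protein genes, by the interaction term in limma. Its largest values past the threshold were 0.92 in Rpl10a, 0.72 in Rpl10, 0.58 in Rps12, 0.58 in Rpl31 and 0.57 in Rps7, on the log2 scale. In Rpl10 the Aβ difference was -0.16 with LPS and -0.88 without it, and in Rpl10a it was -0.84 with LPS and -1.76 without it.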

How the results depend on the processing

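Counts of genes that fell or rose stayed within 1.5 times the reported ones under all alternatives, with the following exception. The count that rose in Aβ vs. Ctrl, 0 as reported, was 1 with library totals and with only the groups compared, the gene being Rps27l. With each library left out in turn it ranged from 0 to 1, with 1 without LPS replicate 2 and without Ctrl replicate 3, Rps27l both times, while the genes that fell numbered 67 to 68 in Aβ vs. Ctrl, 61 to 66 in Aβ+LPS vs. LPS and 59 to 67 in LPS vs. Ctrl, and positive interactions 54 to 67. Adding the 7 rows outside the symbol rule, an alternative chosen after the data were seen, gave shares of reads of 1.6% in Aβ+LPS, 1.57% in Aβ, 2.07% in LPS and 2.44% in Ctrl. Same-numbered libraries of different groups did not deviate together (r between -0.0861 and 0.0367 over 18 pairs, none over 0.1). This r runs over all genes tested, where the spread of single genes can hide shared deviations. It therefore cannot exclude that the numbers pair the cultures. With a replicate block 68 genes fell in Aβ vs. Ctrl, 63 in Aβ+LPS vs. LPS and 63 in LPS vs. Ctrl, and 59 interactions were positive. No named gene changed direction past the threshold. Calls near the threshold moved, as in the interactions of Rpl9 and Rpl36, which passed in 10 and 14 of 23 alternatives, and Rpl26 in LPS vs. Ctrl, which passed in 17 of 24. The 4 genes counted at under 100 had SEs of 0.18 to 0.47 in Aβ vs. Ctrl, so a difference as small as the median of -0.36 in LPS vs. Ctrl was not detectable for most of them.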
